A study of Mus musculus with 23 samples.

Results

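Schwann cells wrap the axons of peripheral nerves, and some of them lay down myelin, a stack of compacted membrane that speeds conduction. Sox10 is the transcription factor that defines their lineage. Pmp22 and Mbp encode structural proteins of compact myelin, and Prx encodes periaxin, a scaffold protein of the myelinating Schwann cell. S100b encodes a calcium-binding protein used as a Schwann cell stain, and Ngfr encodes the low-affinity neurotrophin receptor p75, which is high in non-myelinating and injured Schwann cells. Bone is innervated along its periosteum and vessels, so RNA of these cells can enter a whole-bone extract. None of the 6 genes is made by Schwann cells alone. S100b is also made by chondrocytes and adipocytes, Ngfr by marrow stromal cells, Pmp22 by many cell types, and the Mbp locus also gives rise to the longer Golli transcripts of blood-forming and immune cells.

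These 6 genes were taken by gene symbol from the table of TPM values (RNA levels per transcript length, scaled to the same total in each library) and joined to the count table by gene ID. They are 6 of 17644 genes with a TPM value, and 5 of them were among the 14364 genes that passed the filter of at least 10 counts in at least 5 mice. Sox10 did not pass it. On GRCm38.p6, Pmp22 lies at chr11:63128982-63159547, Ngfr at chr11:95568818-95587698, Mbp at chr18:82475091-82585637, Sox10 at chr15:79154913-79164490, S100b at chr10:76253836-76261319, and Prx at chr7:27499305-27520041. Pmp22 and Ngfr are on the same chromosome as Sarm1, 15.3 and 17.1 Mb from it.

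The study asked whether loss of Sarm1, an enzyme that drives axon degeneration, alters the skeletal effects of type 1 diabetes (T1D). RNA came from the marrow-depleted femur and tibia of 1 hind limb of 23 female mice, all C57BL6/N and 11 weeks old. WT Control (n = 5) and KO Control (n = 6) mice received saline. WT T1D (n = 6) and KO T1D (n = 6) mice received streptozotocin at 100 mg/kg on consecutive days at 8 weeks of age, each time after fasting, and were diabetic for 3 weeks. Streptozotocin is a beta-cell toxin, and another dose was added later where blood glucose stayed low. The KO is a global deletion, so every cell type of the bone carried it. WT mice were littermates of KO mice or purchased from the supplier of the same strain. Each library held 16938101 to 20135592 counts. Sarm1 itself had 5 to 32 counts in every library. It was no lower in the libraries labelled KO, at 5 to 29 counts in KO Control and 15 to 28 in KO T1D, than in WT Control at 15 to 32 and WT T1D at 6 to 21. The Sarm1 counts alone did not tell the genotypes apart, so genotype is given below as labelled. By qPCR, the paper found Sarm1 significantly lower in KO than in WT bone.

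The libraries of 3 WT T1D mice stood apart, and the results that rest on them are given with and without them. In the library of mouse A1764, 87 genes were over 3-fold above the next-highest mouse in CPM plus 0.5, against 0 to 5 genes in each of the other 22 libraries. CPM is the read count scaled to library size with the trimmed mean of M values. The genes named next were chosen after their values were seen. Snap25 and Syt1, components of the synaptic vesicle machinery, had 221 and 134 counts in A1764 and no more than 3 and 2 in any other mouse. Slc17a7, the vesicular glutamate transporter of cortical neurons, had 232 counts against at most 6, and Grin1, a glutamate receptor subunit, had 131 against at most 4. The oligodendrocyte gene Mobp had 133 counts against at most 6, Cldn11 had 133 against at most 10, and Mog had 6 against 0 in all other mice. The astrocyte glutamate transporter Slc1a2 had 158 counts against at most 9. All 7 listed neuron markers of the central nervous system, and all 5 oligodendrocyte markers present in the table, were highest in A1764. Of the astrocyte markers, 2 of 4 were highest in this mouse, as were 8 of 15 listed axon and neuron genes, with Snap25 and Syt1 counted again. Over all 14364 tested genes, 689 were highest in A1764. The lists of central nervous system neuron, oligodendrocyte, and astrocyte markers were added to the planned lists. Their counts therefore describe this library and test nothing.

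**Figure D1:**
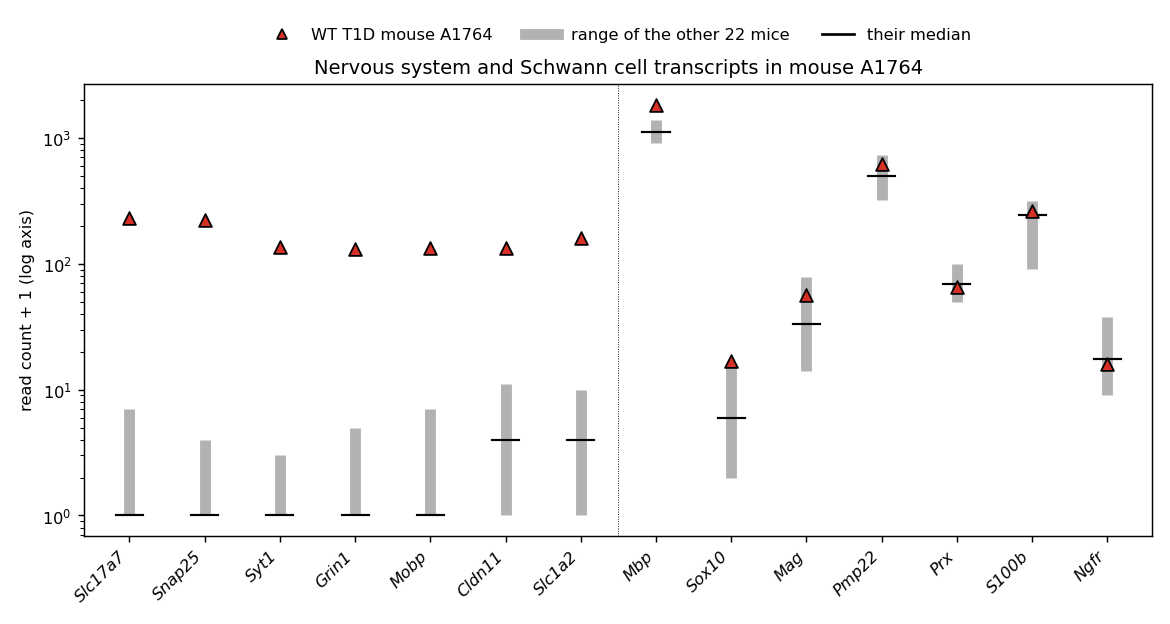
Read counts plus 1 on a log axis for 14 nervous system and Schwann cell genes in WT T1D mouse A1764 (triangle), with the range (grey bar) and median (line) of the other 22 mice. The 7 genes left of the dotted line, from Slc17a7 to Slc1a2, lie above every other mouse, as do Mbp and Sox10, whereas Mag, Pmp22, Prx, S100b, and Ngfr lie within the range of the others.

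Mbp and Sox10 were the members that were highest in A1764, at 1830 and 16 counts against at most 1392 and 14 elsewhere. Prx was not raised with them in this library, at 65 counts against 49 to 99 in the other mice. Where the neural RNA of this library came from was not tested.

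Mice A3905 and A3906 were low in osteoblast and cartilage transcripts. The 8 osteoblast and osteocyte markers summed to 4053 and 3157 CPM in these libraries and to 33870 or more in the other 21. The 6 chondrocyte markers summed to 198 and 231 CPM against 444 or more. Adipocyte markers summed to 433 and 467 CPM against 216 or less. The 12 erythroid markers summed to 10943 and 12769 CPM against 9293 or less, and the 7 neutrophil markers to 37443 and 33962 CPM against 30956 or less.

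On the TPM scale, the only one on which levels of different genes are compared here, the members fell into 3 tiers. Pmp22 averaged 21.7 TPM over the 23 mice and Mbp 19.8 TPM, and their order was not fixed, as Pmp22 was the higher in 14 of 23 mice. S100b averaged 11.4 TPM and was below Mbp in 23 of 23 mice. Prx averaged 1.09 TPM, Ngfr 0.41 TPM, and Sox10 0.157 TPM. Prx exceeded Ngfr in 22 of 23 mice, and Ngfr exceeded Sox10 in 21 of 23. In counts, Sox10 ranged from 1 to 16 and reached 10 in 2 mice. Ngfr ranged from 8 to 37 counts and reached 10 in 20 mice.

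The other genes of the Schwann cell lineage were read from a list of 26. Of these, 8 averaged at least 1 TPM, 8 averaged under 0.1 TPM, and 10 had a count of 0 in some mouse. The 4 most abundant were not specific to the lineage. Cnp, a myelin-associated phosphodiesterase that other cells also make, averaged 47.5 TPM. The cell adhesion molecule Ncam1 averaged 9.81 TPM, the intermediate filament Gfap 8.50 TPM, and the adhesion molecule L1cam 4.58 TPM. The genes that define the lineage were lower. The myelination factor Egr2 averaged 1.13 TPM, the neuregulin receptor Erbb3 0.486 TPM, the Schwann cell cadherin Cdh19 0.0387 TPM, and the gap junction gene Gjb1 0.0235 TPM with 0 counts in 18 mice. These genes and Sox10 were thus far below Pmp22, Mbp, and S100b in this tissue, and the 6 genes are named below by their symbols, not as a measure of Schwann cells.

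**Figure D2:**
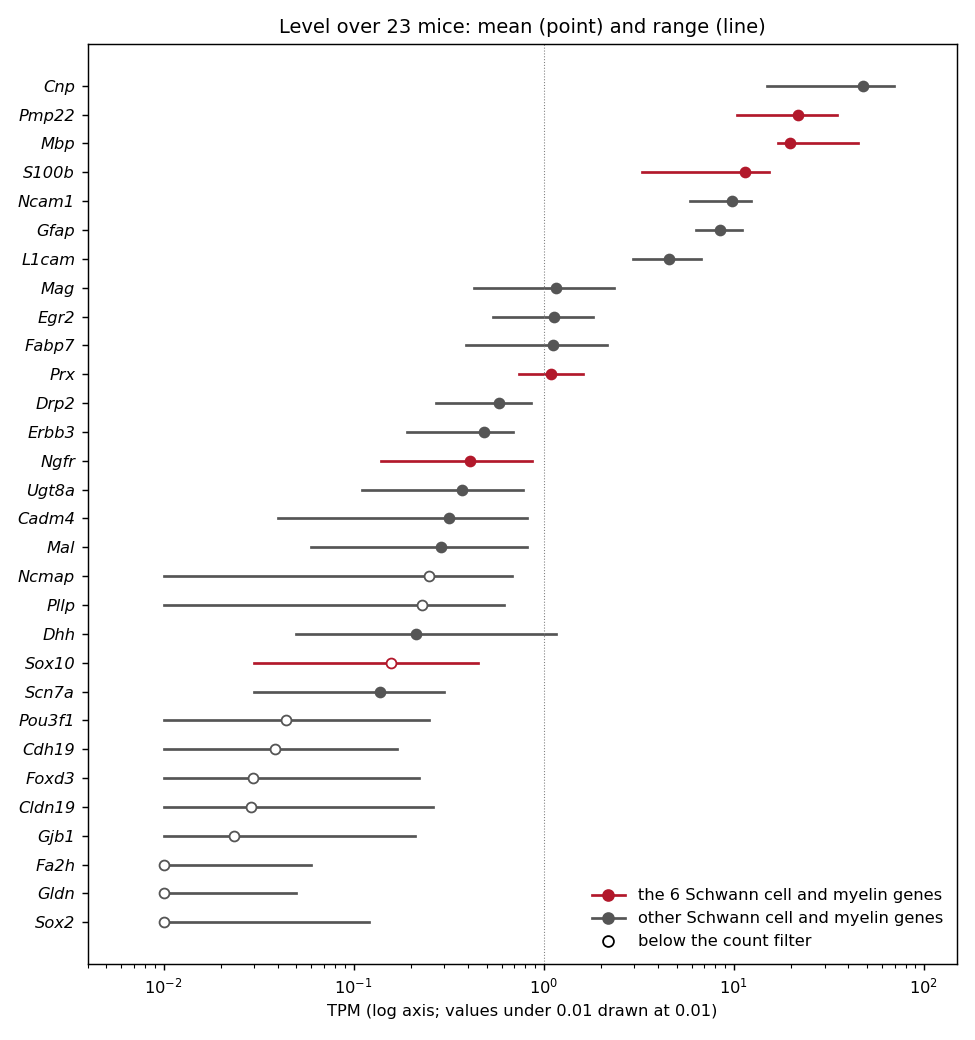
Mean (point) and range (line) in TPM over the 23 mice, on a log axis, for the 6 Schwann cell and myelin genes (red) and 24 other genes of the lineage (grey), with open points for genes below the count filter. Pmp22, Mbp, and S100b average 11.4 to 21.7 TPM, between Ncam1 (9.81 TPM) and Cnp (47.5 TPM). Prx, Ngfr, and Sox10 lie with Egr2 and Erbb3 at about 1 TPM or below.

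The first comparison asked what 3 weeks of T1D did to these genes in WT mice. Of the 5 tested members, 1 passed the threshold (edgeR quasi-likelihood test, Benjamini-Hochberg adjusted p under 0.05), the Mbp gene, which was higher in T1D. Over all tested genes, 2.33% passed in this comparison. The other 4 had log2 fold changes from -0.38 for S100b to 0.03 for Prx. In bulk bone, a change in the number of cells of a type and a change in their RNA per cell cannot be told apart.

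Mbp stood at 59.5, 62.0, 51.2, 52.4, and 52.0 CPM in the WT Control mice. In WT T1D it ran from 56.4 through a median of 69.9 to 103 CPM. The groups overlapped only through mouse A3909, the lowest of the T1D group, and 5 of 6 WT T1D mice were above every WT Control mouse. Mbp averaged 55.4 ± 4.97 CPM (SD, n = 5) in WT Control and 74.0 ± 16.4 CPM (SD, n = 6) in WT T1D. The log2 fold change of Mbp was 0.42 (SE 0.10, edgeR adjusted p = 0.0451), and the exact two-sided permutation test over mice gave p = 0.0195 for a difference of 0.39 on the log2(CPM + 0.5) scale.

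The 3 libraries that stood apart were also the 3 with the most Mbp, at 103 CPM in A1764, 80.5 CPM in A3906, and 73.7 CPM in A3905. The Mbp call held in 7 of the 23 fits that each left out 1 mouse, with edgeR adjusted p from 0.0127 to 0.122 over the 23. The fit without A1764 was among the 7, with a log2 fold change of 0.30 (SE 0.08, edgeR adjusted p = 0.0364). Without A3905 and A3906 the fold change of Mbp was 0.38 (SE 0.12) and the adjusted p from edgeR was 0.288. Without all 3, Mbp averaged 62.3 ± 5.18 CPM in the remaining 3 WT T1D mice, the log2 fold change was 0.17 (SE 0.08, edgeR adjusted p = 0.514), and the exact permutation test gave p = 0.143. In the 2 edgeR fits without A3905 and A3906, 0 of all tested genes passed, with 1571 and, without A1764 as well, 1379 genes at an unadjusted p under 0.05. With the level of erythroid markers as a covariate, the Mbp change was 0.35 (SE 0.13, edgeR adjusted p = 0.999), again with 0 genes called in that fit and 634 at an unadjusted p under 0.05.

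Erythroid markers moved with the comparison. Their summed level was 5264 to 7252 CPM in WT Control and 7502 to 12769 CPM in WT T1D, and 6 of the 12 rose in WT T1D, among them Rhag (log2 fold change 0.94), Slc4a1 (0.64), and Hemgn (0.61). Of the 5 adipocyte markers tested, Fabp4 rose (1.36). Of the 8 osteoblast and osteocyte markers, Ibsp (-0.78) and Runx2 (-0.66) fell. All of these calls were lost without A3905 and A3906, in a fit in which 0 of all genes passed. In that fit all 12 erythroid markers were still higher, with a median log2 fold change of 0.40 against 0.55 with all mice.

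Mbp counts and Mbp TPM did not move together in A1764. The TPM of a gene is its count divided by the average length of its transcripts in that library, so the count per TPM, after scaling each library by the median over 9743 genes, tracks the length of the transcripts to which the reads were assigned. For Mbp, this length was 95.2 to 106% of the median mouse in 22 libraries and 69.0% in A1764. No other of the 9743 genes was shifted down as far in that library. A shift of this size was not particular to A1764, as 0 to 2 genes were shifted as far in each of the other 22 libraries. The 8 Mbp transcripts matched to the mouse annotation range from 638 to 4797 bases, so a library can differ in length by its mix of them. Pmp22 and S100b kept 99.8 to 100.2% of their median length in all 23 libraries, and Prx 94.8 to 109%.

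On the TPM scale, Mbp was 44.96 in A1764 and 17.4 to 19.8 in the other WT T1D mice. The WT Control mice ran from 16.97 to 21.1 TPM, so that 5 of 6 WT T1D mice lay within the Control range. In a limma fit on log2(TPM + 1), the Mbp change was 0.21 (SE 0.16, adjusted p = 0.274). On this scale the median of all tested genes fell by 0.24 between WT Control and WT T1D, against 0.01 in the CPM fit, and relative to that median the Mbp change was 0.45. Both Mbp changes include A1764 at 44.96 TPM, and no TPM fit was run without this mouse.

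**Figure D3:**
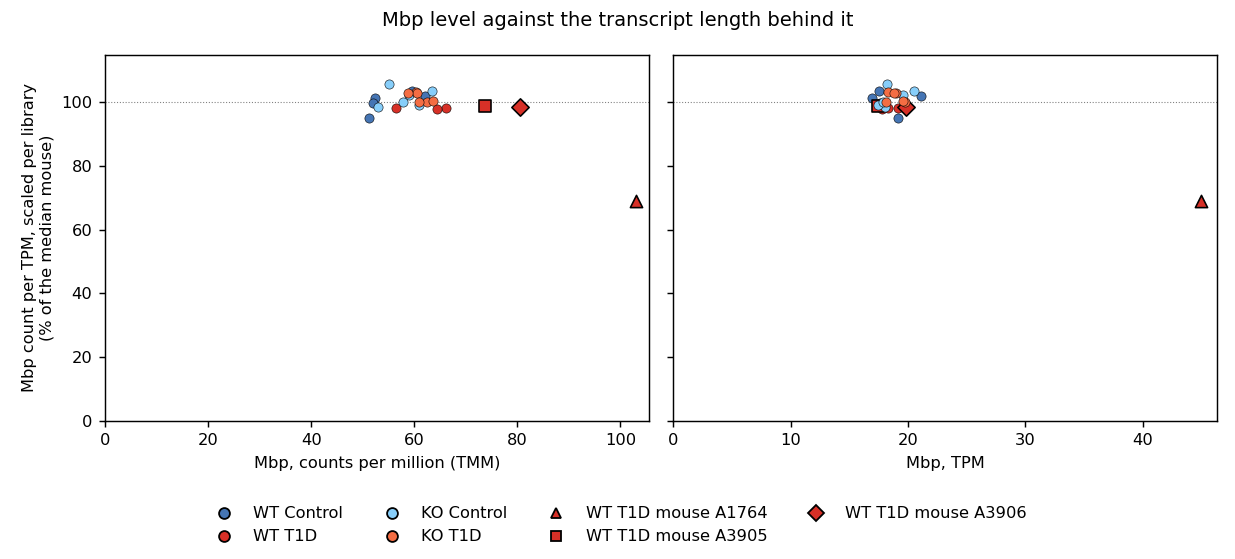
Mbp count per TPM, scaled per library and given as percent of the median mouse, against Mbp CPM (left) and Mbp TPM (right) for the 23 mice, coloured by group. Mouse A1764 lies alone at 69.0% with 103 CPM and 44.96 TPM, and the other 22 mice lie between 95.2 and 106%, with A3905 and A3906 apart from them in CPM but not in TPM.

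S100b showed a split within the WT T1D group. The WT Control mice had 11.7, 14.4, 12.3, 15.7, and 16.4 CPM. The lowest WT T1D mouse had 5.10 CPM, the median was 12.4, and the highest had 14.7. A3905 and A3906, at 5.10 and 6.48 CPM, were far below all 21 other mice of the study, which had at least 9.83 CPM, and the remaining 4 WT T1D mice averaged 13.3 ± 1.31 CPM (SD, n = 4) against 14.1 ± 2.06 CPM (SD, n = 5) in WT Control. The log2 fold change of S100b was -0.38 (SE 0.21, edgeR adjusted p = 0.287; exact permutation p = 0.180). Without the pair it was -0.08 (SE 0.14, edgeR adjusted p = 0.887). In the mice with IDs from A36 to A39, which leave 4 WT Control and 3 WT T1D mice, of which A3905 and A3906 are 2, S100b fell by 0.83 on the log2 scale (SE 0.24, edgeR adjusted p = 0.0288). The remaining IDs start with A17 and belong to 1 WT Control mouse, 3 WT T1D mice, and no KO mouse. What these ID series stand for is not given. They cannot be fully told apart from T1D in WT or from genotype in T1D. In the limma fit on log2(TPM + 1), S100b fell by 0.67 (adjusted p = 0.0325), or by 0.43 relative to the median of all genes. The same pair of mice had the lowest osteoblast and chondrocyte markers, and their part in the S100b values was not tested.

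**Figure D4:**
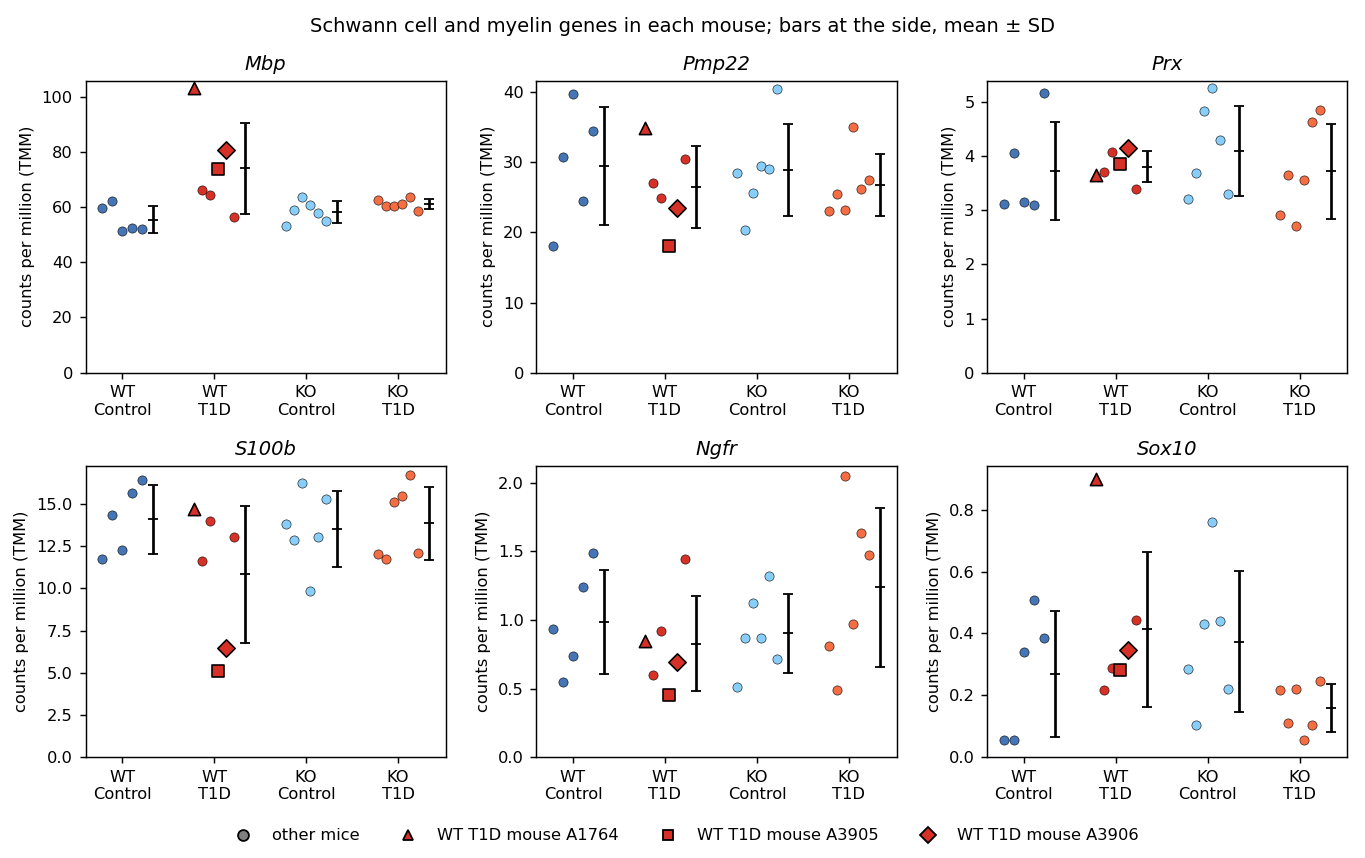
CPM of each Schwann cell and myelin gene in each of the 23 mice by group, with the mean and SD at the right of each group; triangle, square, and diamond mark WT T1D mice A1764, A3905, and A3906. Mbp is highest in these 3 mice, S100b is lowest in A3905 and A3906, Sox10 is highest in A1764, and the Prx, Pmp22, and Ngfr values overlap between all groups.

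Pmp22 was spread widely within each group. It had 18.0, 30.8, 39.7, 24.5, and 34.4 CPM in WT Control, and in WT T1D the lowest mouse had 18.0, the median was 25.9, and the highest had 34.9 CPM. These ranges overlapped almost fully. The log2 fold change of Pmp22 was -0.16 (SE 0.19, edgeR adjusted p = 0.659; exact permutation p = 0.576).

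Prx had 3.12, 4.06, 3.16, 3.10, and 5.18 CPM in WT Control and 3.39 to 4.16 CPM, with a median of 3.78, in WT T1D. Its T1D values lay within the Control range, with a log2 fold change of 0.03 (SE 0.18, edgeR adjusted p = 0.945). Ngfr had 17, 10, 13, 22, and 27 counts in WT Control and 8 to 26 counts, with a median of 13.5, in WT T1D. The log2 fold change of Ngfr was -0.26 (SE 0.37, edgeR adjusted p = 0.726), which was within the spread between mice.

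**Figure D5:**
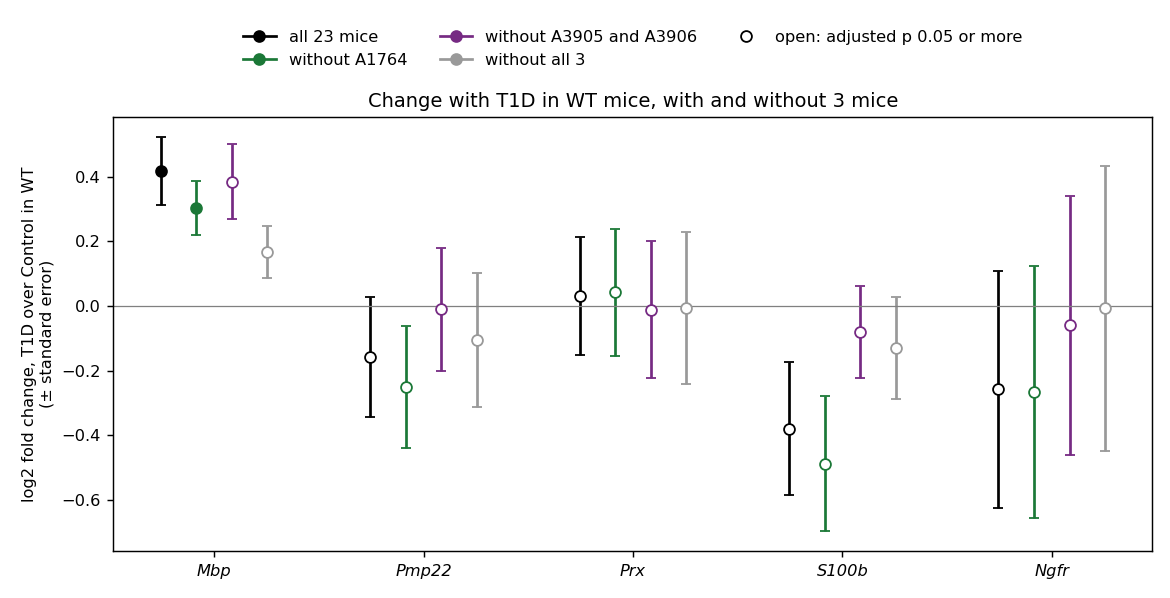
Log2 fold change of T1D over Control in WT mice, with its standard error, for the 5 tested members in the edgeR fit with all 23 mice, without A1764, without A3905 and A3906, and without all 3; filled points passed the adjusted p threshold. Mbp passed with all mice (0.42) and without A1764 (0.30), and S100b moved from -0.38 to -0.08 when A3905 and A3906 were left out.

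The second comparison asked the same of mice labelled KO. By edgeR, 0 of the 5 tested members passed, and 0 had an unadjusted p under 0.05, with DESeq2 giving the same counts. The background was 0%, with 452 of 14364 genes at an unadjusted p under 0.05. Mbp ran from 53.0 through 58.4 to 63.4 CPM in KO Control and from 58.7 through 60.7 to 63.7 CPM in KO T1D. The groups overlapped, and the log2 fold change of Mbp was 0.07 (SE 0.10). S100b ran from 9.83 to 16.3 CPM in KO Control, with a median of 13.4, and from 11.7 to 16.7 CPM in KO T1D, with a median of 13.6. Its log2 fold change was 0.03 (SE 0.20).

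Pmp22 ran from 20.4 to 40.5 CPM in KO Control and from 23.1 to 35.0 CPM in KO T1D, with medians of 28.8 and 25.9 CPM and a log2 fold change of -0.11 (SE 0.18). Prx ran from 3.20 to 5.27 CPM in KO Control and from 2.71 to 4.86 CPM in KO T1D, with medians of 4.00 and 3.61 CPM and a log2 fold change of -0.14 (SE 0.17). Both genes overlapped widely between the groups. Ngfr had 9 to 24 counts in KO Control and 9 to 37 in KO T1D, with a median of 16.5 against 24. Its log2 fold change of 0.45 (SE 0.34, unadjusted p = 0.203 by edgeR) was within the spread between mice.

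The genotypes were then compared within each condition. In Control mice, 0 of the 5 tested members passed by edgeR or DESeq2, against 0.0278% of all genes. At an unadjusted p under 0.05 there were 690 of all 14364 genes and 0 of the 5 members. The log2 fold changes of the members ranged from -0.13 for Ngfr to 0.14 for Prx. Pmp22, which lies nearest to Sarm1 among the members, changed by -0.03 (SE 0.19).

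In T1D mice, 0 of the 5 tested members passed by either tool, against 0.0905% of all genes. At an unadjusted p under 0.05 there were 2454 of all 14364 genes and 1 of the 5 members. This was Mbp, which had a log2 fold change of -0.28 in mice labelled KO against WT (SE 0.10, unadjusted p = 0.0103, edgeR adjusted p = 0.191), and all 5 of the WT T1D mice above the KO T1D range of Mbp were also above every WT Control mouse. Without A1764, A3905, and A3906 the exact permutation test gave a difference of -0.02 for Mbp (p = 0.655). Ngfr had a log2 fold change of 0.58 (SE 0.35) and S100b one of 0.35 (SE 0.20), with edgeR adjusted p of 0.391 and 0.361. In the A36 to A39 mice, S100b alone passed, at 0.74 (edgeR adjusted p = 0.0426), with A3905 and A3906 among the 3 WT T1D mice.

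The difference between the genotypes in the response to T1D was tested as an interaction. By edgeR and by DESeq2, 0 of the 5 tested members passed, against a background of 0% with 1467 genes at an unadjusted p under 0.05. Mbp had an interaction of -0.35 on the log2 scale (SE 0.14, unadjusted p = 0.0242, edgeR adjusted p = 0.479). The exact permutation test of Mbp gave -0.32 (p = 0.0248), -0.22 without A1764 (p = 0.0456), -0.28 without A3905 and A3906 (p = 0.0648), and -0.10 without all 3 (p = 0.253). The interaction was 0.41 (SE 0.29) for S100b, 0.71 (SE 0.50) for Ngfr, 0.04 (SE 0.26) for Pmp22, and -0.17 (SE 0.25) for Prx.

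Sox10 was below the count filter and was examined mouse by mouse. It had 1, 1, 6, 9, and 7 counts in WT Control, which sum to 24. In WT T1D it had 4 to 16 counts with a median of 5.5, summing to 44, of which A1764 gave 16. KO Control had 2 to 14 counts with a median of 6.5, summing to 41, and KO T1D had 1 to 5 counts with a median of 3, summing to 18. All groups overlapped in at least some mice. KO T1D was the lowest group, and 3 of its 6 mice had fewer counts than every WT T1D mouse.

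For KO T1D against WT T1D, Sox10 differed by -0.44 on the log2(CPM + 0.5) scale (exact permutation p = 0.00649). The difference was -0.31 without A1764 (exact permutation p = 0.0130), -0.51 without A3905 and A3906 (exact permutation p = 0.0143), and -0.31 without all 3 (exact permutation p = 0.0476). In the edgeR fit without a count filter, Sox10 had a log2 fold change of -1.34 in this comparison (SE 0.57, adjusted p = 0.265). For T1D against Control in mice labelled KO, Sox10 differed by -0.38 (exact permutation p = 0.0433), with -1.20 (SE 0.57, adjusted p = 1.00) in that edgeR fit, and the permutation p was 0.0519 with a pseudocount of 0.1. In WT, Sox10 differed by 0.25 with T1D (exact permutation p = 0.275) and by 0.12 without A1764 (exact permutation p = 0.484). The interaction of Sox10 was -0.63 (exact permutation p = 0.0340) and -0.50 without A1764 (exact permutation p = 0.0576). It was -0.69 without A3905 and A3906 (exact permutation p = 0.0329), and edgeR without a filter gave -1.81 with all mice (SE 0.81, adjusted p = 0.514). In all, 30 such single-gene permutation tests were run on 6 genes and 5 comparisons, 5 of which gave p under 0.05 before any adjustment. After adjustment over all genes, Sox10 passed in none of the 5 comparisons.

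The rest of the lineage was read next. Of the 26 other Schwann cell and myelin genes, 16 were tested and 0 passed by edgeR in any of the 5 comparisons. Over all genes, 2.33% passed for T1D in WT and at most 0.0905% in each other comparison, so 0 of 16 is near the background. At an unadjusted p under 0.05 there was 1 gene of the 16 for T1D in WT, Gfap with a log2 fold change of 0.43, and 0 for T1D in KO, against 3195 and 452 of all 14364 genes. In WT, 9 were lower and 7 higher with T1D, with a median log2 fold change of -0.03 against -0.01 over all genes. Without A1764, 13 were lower and 3 higher (median -0.16), without A3905 and A3906 7 were lower and 9 higher (median 0.06), and without all 3 mice 10 were lower and 6 higher (median -0.06), so the balance of directions was not stable. With T1D in WT and in KO, the log2 fold changes were -0.10 and 0.03 for Cnp, -0.13 and 0.09 for Ncam1, and -0.05 and 0.10 for L1cam. Cnp had 31.9 and 33.5 CPM in A3905 and A3906 and at least 63.6 CPM in the other 21 mice. The 26 genes, Cnp among them, summed to 120 and 129 CPM in this pair and to at least 151 in the others. Ugt8a went the other way and was highest in the pair, at 2.72 and 2.08 CPM.

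Of 12 listed neurotrophins, glial growth factors, and receptors, 8 were tested, and 0 passed by edgeR in any comparison, with 0 at an unadjusted p under 0.05. With 2.33% of all genes called for T1D in WT and fewer elsewhere, 0 of 8 is near the background, and at an unadjusted p under 0.05 there were 3195 of 14364 genes for T1D in WT and 2454 for the genotypes in T1D. Sort1, a sorting receptor that pairs with p75, averaged 41.3 TPM and was the most abundant, and others were the GDNF co-receptor Gfra1 at 2.98 TPM and the neuregulin receptor subunit Erbb2 at 2.00 TPM. With T1D in WT, their log2 fold changes were 0.02 for Sort1, 0.30 for Gfra1, and -0.19 for Erbb2. Of 15 axon and neuron genes 4 were tested, and 0 passed by edgeR in any comparison. These were Uchl1 at 15.1 TPM, Tubb3 at 5.00 TPM, the heavy neurofilament gene Nefh at 1.60 TPM, and Stmn2 at 0.885 TPM. Tubb3 alone had an unadjusted p under 0.05, for the genotypes in T1D, with a log2 fold change of 0.98 (edgeR adjusted p = 0.206). The sensory and sympathetic genes Calca and Th had a count of 0 in 19 and 22 of 23 mice.

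The members did not vary together as a set across the 23 mice, although some pairs were moderately correlated. Over their 15 pairs, Pearson r of log2(CPM + 0.5) ranged from -0.37 for Mbp and S100b to 0.49 for S100b and Ngfr, as a description over libraries that share depth and composition. The genes most like each member differed from one member to the next. For Mbp these were Glul (r = 0.80), Igf2 (r = 0.78), and Nadk2 (r = 0.75), and without A1764, A3905, and A3906 the r of Igf2 was 0.05 and that of Glul 0.68. For S100b they were C1qtnf6, D630045J12Rik, and Csdc2, with r of 0.93 over all mice and 0.71, 0.70, and 0.73 over the other 20, and the gene ranked 100th still had r = 0.89. For Pmp22 they were Fermt2 (r = 0.88, and 0.91 over 20 mice), Enpp2 (r = 0.83), and Mapk12 (r = 0.82). For Ngfr they were Il7, Tmem110, and Unk, with r from 0.69 to 0.74, and for Prx they were Selenop, St14, and Ccdc107, with r from 0.72 to 0.78. No member was among the 3 genes most like another. Sox10 and Ngfr were below the cut of 1 CPM for such genes, so they could not be.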

How the data were processed

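RNA-seq of marrow-depleted bone was analysed in 23 mice. Per the labels and the study's methods, poly(A) RNA was made into stranded libraries and sequenced as read pairs on a DNBSEQ platform. The authors filtered reads with SOAPnuke and used HISAT and Bowtie2 on GRCm38.p6. The authors deposited RSEM expected counts, which are rounded to whole numbers here, and TPM values from the same provider. RSEM shares reads among overlapping transcripts, so counts of genes with several isoforms, such as Mbp, are estimates.

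Counts were tested with edgeR 4.0.16 (TMM, quasi-likelihood test, 1 model of 4 group means), with Benjamini-Hochberg adjustment over the 14364 genes that reached 10 counts in 5 or more mice. Single members were tested by two-sided exact permutation over mice. For the interaction, genotype labels were permuted within Control and within T1D. That p is thus exact only if genotype has no effect in either condition. Alternatives used DESeq2 1.42.0 and limma 3.58.1 on log2(TPM + 1) and log2(TPM + 0.1). The edgeR step was tested on simulated counts. Depth was 16938101 to 20135592 counts per library. The p-values judge a difference between groups against the spread between mice.

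Named were the 6 members, Sarm1, of each marker list the called genes (at most 5) and the 4 with the highest mean TPM, and for each tested member the 3 genes of at least 1 CPM with the highest r. Genes named outside this rule, such as Snap25 or Egr2, were chosen after their values were seen. Members and lists were chosen with earlier results of these data known. Some genes of the lists count in the totals but are not reported here.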

Additional observations from a re-analysis of the deposited data

Results flagged for a closer look

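In 2 cases a value was far from the rest of their group, where about 1 in 20 groups is marked by chance and 24 were examined. Sox10 in WT T1D mouse A1764 stood apart from the other 5 mice by a gap of 0.668 of the group's range in CPM. Pmp22 in KO T1D mouse A3674 stood apart by 0.630 of the range. On the log2(CPM + 0.5) scale, the T1D change in KO minus that in WT was -0.32 for Mbp (exact permutation p = 0.0248). For Sox10 it was -0.63 (exact permutation p = 0.0340). Neither interaction passed adjustment over all genes, and both were smaller without A1764. Without A3905 and A3906, Mbp had -0.28 (exact permutation p = 0.0648) and Sox10 -0.69 (exact permutation p = 0.0329), the latter larger than with all mice. Without A1764, A3905, and A3906, Mbp had -0.10 (exact permutation p = 0.253) and Sox10 -0.50 (exact permutation p = 0.0753).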

How the results depend on the processing

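In WT, the number of members called with T1D was 1 with DESeq2, DESeq2 size factors, and both TPM fits, although the TPM fits called S100b and not Mbp. It was 0 without the count filter (Mbp adjusted p = 0.0535), in a fit of the groups compared alone (0.200), with the erythroid covariate, and without A3905 and A3906 or without these and A1764. It was 2 in the A36 to A39 mice. With any 1 mouse left out, it was 0 to 1. The Mbp call held in 7 of 23 such fits, those without A1757, A1764, A1758, A3909, A3766, A3683, or A3674, and the fold change of Mbp stayed between 0.30 and 0.48 (edgeR adjusted p 0.0127 to 0.122). The count for KO against WT in T1D was 1 among the A36 to A39 mice. For the other comparisons it was 0 in every alternative run. Leaving out A1764, or this mouse with A3905 and A3906, was chosen after seeing the data, as were the tests of marker lists without them.

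Direction changed in these cases, none of them past the threshold. With the erythroid covariate, the T1D change in WT was 0.21 for Pmp22, 0.070 for S100b, 0.056 for Ngfr, and -0.16 for Prx. In the same fit, KO against WT was 0.055 for Pmp22 and 0.064 for S100b in Control and -0.21 for Pmp22 and 0.091 for Prx in T1D, and the interaction was -0.27 for Pmp22 and 0.011 for Prx. On log2(TPM + 1) and log2(TPM + 0.1), respectively, Prx was -0.16 and -0.28 for T1D in WT, 0.079 and 0.13 for KO against WT in T1D, and 0.049 and 0.074 for the interaction, and S100b was -0.0096 and -0.0086 for T1D in KO. Prx for T1D in WT was -0.016 in the A36 to A39 mice, -0.012 without A3905 and A3906, and -0.0054 without all 3, and for KO against WT in T1D it was 0.0079 and 0.0015 in those last fits. Pmp22 without A3905 and A3906 was -0.13 for KO against WT in T1D and -0.11 for the interaction, and without all 3 it was -0.037 and -0.011. On the permutation scale, Pmp22 without A3905 and A3906 was 0.031 for T1D in WT, -0.13 for KO against WT in T1D, and -0.13 for the interaction, and without all 3 the last pair was -0.045 and -0.040. Leaving out 1 mouse gave Prx -0.031 to 0.18 for T1D in WT and -0.13 to 0.046 for KO against WT in T1D. It gave Pmp22 -0.21 to 0.0026 for T1D in KO, -0.16 to 0.10 and -0.084 to 0.10 for KO against WT in Control and in T1D, and -0.087 to 0.18 for the interaction. It gave S100b -0.049 to 0.087 for T1D in KO and -0.12 to 0.011 for KO against WT in Control, and Ngfr -0.28 to 0.067 for the latter. The cause was not tested. No paired analysis was possible because the mice carry individual IDs and the groups share no replicate numbers. Counts of 1 to 16 for Sox10 and 8 to 37 for Ngfr limit what can be seen for them.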
